A study of Homo sapiens with 18 samples.

Results

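The RNA levels of 10 genes of iron uptake, storage, export and haem breakdown were followed in K562, an established human chronic myeloid leukaemia cell line with erythroid features. The genes were taken by symbol from the table of 41285 genes: TFRC, TFR2, STEAP3 and SLC11A2 (uptake), SLC25A37 (mitochondrial import), FTH1 and FTL (storage), HMOX1 (haem breakdown), SLC40A1 (export) and IREB2 (control). Each symbol matched 1 gene, and all 10 passed the filter on low counts that 22143 genes passed, HMOX1 only through the VPR-D9 libraries described below. The study asked what changes in K562 cells when SAMD9, an interferon-induced gene that restrains growth, is raised or lowered. PolyA-selected RNA was sequenced in 18 libraries, 2 in each of 9 groups.

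The parental line was left untreated or given interferon alpha (IFN), at 1000 U/mL for 24 hours. In the VPR-D9 line doxycycline induces dCas9-VPR, a catalytically dead Cas9 fused to a transcriptional activator. VPR-D9 cells were untreated or doxycycline-treated, in 2 groups coded D2000 and D6. In the KRAB-D9 line doxycycline induces dCas9-KRAB, the same protein fused to a repressor. KRAB-D9 cells were untreated, or received IFN, doxycycline, or both. With both, doxycycline was started 24 hours before IFN and continued. The general protocol gives doxycycline at 2 µg/mL. The meaning of the codes D2000 and D6, the length of doxycycline treatment in groups without IFN, and whether D9 is a single clone were not found in the labels. Parental cells with doxycycline were not analysed here, so an effect of doxycycline itself, of the dCas9 fusion and of SAMD9 cannot be told apart. Nothing in the labels tells whether replicates are separate cultures, and p-values then measure only the spread between these libraries, which may be technical.

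Cells take up iron as transferrin, which binds transferrin receptor 1 (TFRC) and is carried into endosomes, where a STEAP reductase reduces the iron and DMT1 (SLC11A2) moves it into the cytosol. Erythroid cells send most of it through mitoferrin-1 (SLC25A37) into mitochondria for haem, store the rest in ferritin (heavy chain FTH1, light chain FTL), and can export it through ferroportin (SLC40A1). Haem oxygenase 1 (HMOX1) opens the haem ring and frees its iron. When iron is scarce, the iron regulatory proteins (IRP1, encoded by ACO1, and IRP2, encoded by IREB2) bind hairpins called iron-responsive elements. Bound in a 3′ UTR they protect TFRC mRNA from decay, and bound in a 5′ UTR they block translation of ferritin and ferroportin mRNA, a step that RNA levels do not show.

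The hairpins are shown because they mark the members that the iron regulatory proteins are known to bind, TFRC on one side and ferritin and ferroportin on the other. The annotated coding transcripts of GENCODE 29 (GRCh38) were searched on their own strand for an unpaired C, a stem of 5 pairs and the loop CAGTGN. The pattern was present in 291 of 19702 genes (1.48%). Of the 10 genes, 4 held it: TFRC at 4 places in the 3′ UTR, and FTH1, FTL and SLC40A1 at 1 place each in the 5′ UTR. The sites are shown 5′ to 3′ as DNA of the transcript strand, with the 6-base loop in capitals.
TFRC, chr3:196050979-196051007, minus strand: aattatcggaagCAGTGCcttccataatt
TFRC, chr3:196050575-196050603, minus strand: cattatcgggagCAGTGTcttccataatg
TFRC, chr3:196050510-196050538, minus strand: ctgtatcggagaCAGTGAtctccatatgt
TFRC, chr3:196050463-196050491, minus strand: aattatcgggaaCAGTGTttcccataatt
FTH1, chr11:61967574-61967602, minus strand: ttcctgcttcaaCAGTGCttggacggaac
FTL, chr19:48965335-48965363, plus strand: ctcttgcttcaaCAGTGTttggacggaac
SLC40A1, chr2:189580661-189580689, minus strand: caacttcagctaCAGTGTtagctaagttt
The TFRC sites lay in 3 of its 4 coding transcripts, the FTH1 site in 7 of 8, the FTL site in its only one and the SLC40A1 site in 1 of 5. These letters were not found in the transcripts of SLC11A2, TFR2, STEAP3, SLC25A37, HMOX1 or IREB2. A match here is a match of letters, and binding was not measured.

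Libraries held 32.7 M to 63.0 M counts, and the shallowest was replicate 1 of KRAB-D9 with IFN. That group's libraries differed most from each other: their variance was 19.6 times counting noise, and that of the other 8 groups 4.71 to 6.98 times. Levels are given in CPM, the usual counts per library size after TMM scaling, and changes as log2 fold changes ± standard error from edgeR. The call threshold was an adjusted p under 0.05 (Benjamini-Hochberg, over the 22143 genes). SAMD9 followed the labels. It rose from 9.31 and 9.05 CPM to 168 and 154 CPM with IFN in parental cells, stood at 974 and 948 CPM in D2000 and 936 and 960.5 CPM in D6, and at 0 and 0.117 CPM in KRAB-D9 with doxycycline. It already differed between the untreated lines, at 59.9 and 61.4 CPM in VPR-D9 (6.6-fold above parental cells) and 0.750 and 0.364 CPM in KRAB-D9 (15.9-fold below). The erythroid markers were present, 9 of 9 above 1 CPM. Of the macrophage markers 1 of 7 (VSIG4) and of the hepatocyte markers 0 of 3 reached 1 CPM in any library, which bears on HMOX1, SLC40A1 and TFR2, genes that those cells also use. Of the lymphocyte markers 3 of the 4 in the table reached 1 CPM, and their sum was 7.81 to 9.58 CPM in untreated VPR-D9 and 15.6 to 16.7 CPM in D2000. The epithelial sum, nearly all EPCAM, was 64.4 to 69.6 CPM and 30.4 to 30.7 CPM in these groups, and the part of either in the D2000 changes was not tested.

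Ferritin led the list in every group when levels were set per kilobase of gene model. In untreated parental cells FTL stood at 2487 ± 73 CPM per kb (mean ± SD of 2 libraries), FTH1 at 442 ± 7.8 and TFRC at 144 ± 0.70. TFR2 (26.1 ± 1.2) and SLC25A37 (26.04 ± 0.90) did not differ beyond their spread. SLC40A1 (18.6 ± 0.020), IREB2 (17.7 ± 0.082), STEAP3 (10.9 ± 0.54) and SLC11A2 (5.32 ± 0.16) followed, and HMOX1 had no counts. Across the 9 groups the mean CPM of TFRC spanned 7.73-fold, from 221 in D2000 to 1709 in KRAB-D9 with both treatments.

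**Figure D1:**
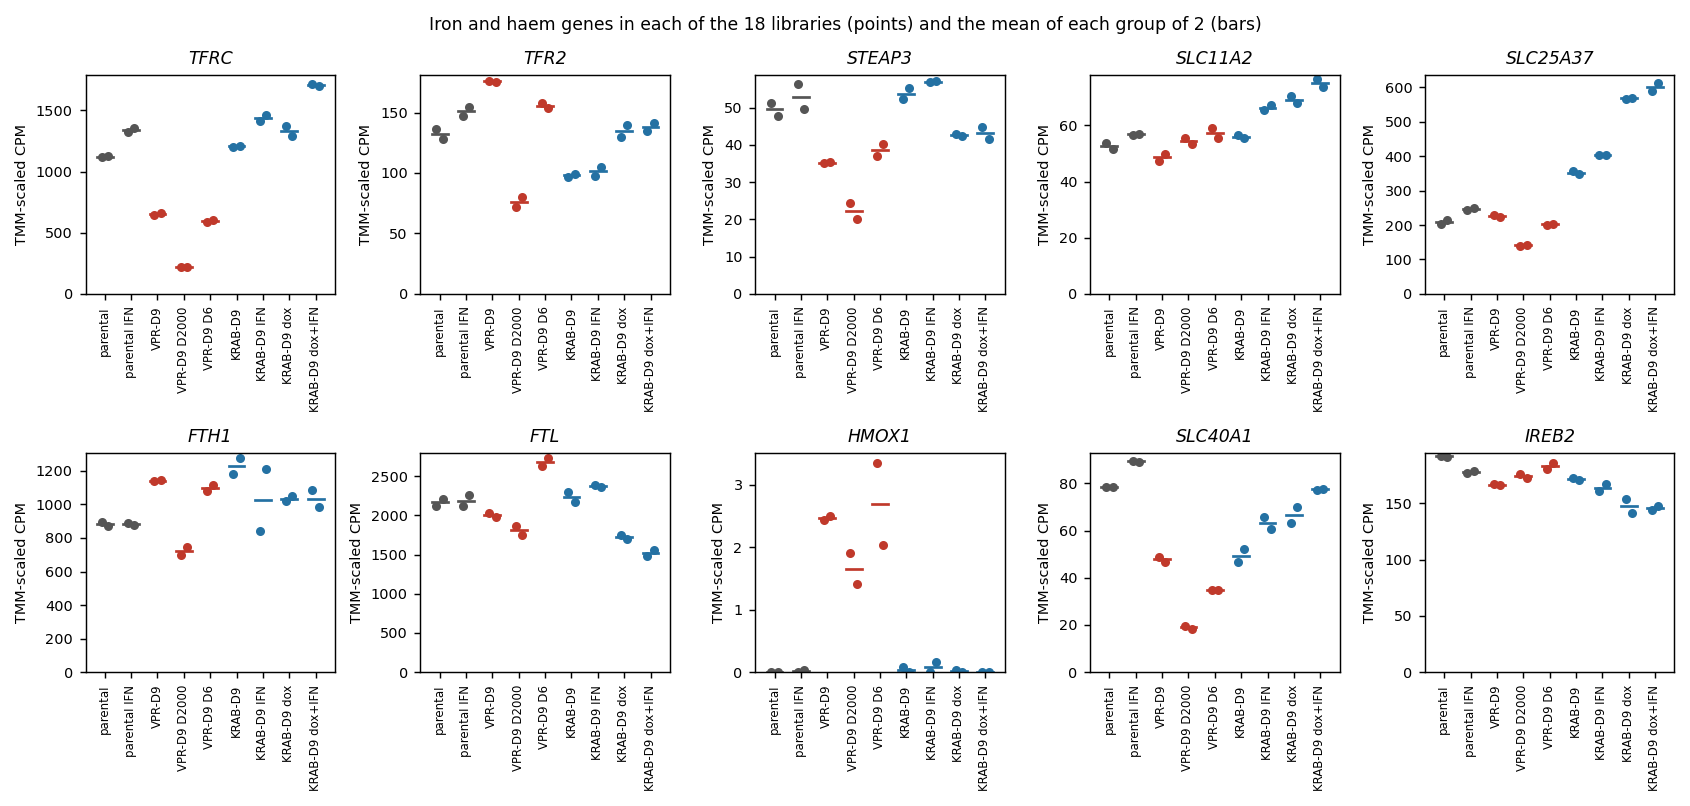
Level of each of the 10 genes in the 18 libraries, in TMM-scaled CPM. Each panel has its own vertical axis, each point is 1 library and the short line is the mean of the 2 libraries of a group. TFRC, TFR2, STEAP3, SLC25A37, FTH1 and SLC40A1 are lowest in D2000 of VPR-D9. HMOX1 has more than a trace only in the VPR-D9 groups, and FTH1 is split in KRAB-D9 with IFN (839 and 1209 CPM).

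D2000 lowered most of these genes, and lowered the receptor most. Of the 10, 7 fell and 1 rose against untreated VPR-D9 cells, where 46.1% of all genes were called (24.2% lower and 21.9% higher). The median log2 fold change was -0.66 over the 10 genes and 0.06 over all genes tested. D6 was at the same level of SAMD9 (-0.02 ± 0.05 between the 2 groups, adjusted p = 0.821). There 3 of the 10 rose and 4 fell, where 6.6% of all genes were called (3.19% higher and 3.41% lower). The 4 falls were smaller than in D2000. The 3 rises were 0.42 for FTL, 0.23 for SLC11A2 and 0.14 for IREB2, against -0.15, 0.16 and 0.07 in D2000. SLC11A2 and IREB2 were not called different between D6 and D2000. The D6 calls depended on single libraries, with 2 to 7 of the 10 called as each was left out in turn. Leaving out replicate 1 of D6 gave the lowest count. Set directly against D2000, 7 of the 10 were higher in D6 and none was lower, with 40.4% of all genes called (21.7% higher and 18.8% lower). D2000 and D6 share their untreated controls.

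In KRAB-D9 cells doxycycline split the list. SLC25A37, TFR2, SLC40A1, SLC11A2 and TFRC rose, and FTL, STEAP3 and IREB2 fell, while 24.7% of all genes were called (12% higher and 12.7% lower). With IFN on both sides of the comparison the same 5 rose and the same 3 fell (22.3% of all genes called, 10.4% higher and 11.9% lower). HMOX1 also fell, which rested on 9 counts in 1 library. The SLC11A2 call there (0.18 ± 0.06, edgeR adjusted p = 0.0137) was lost in a fit of only the compared groups (0.0949). It was also lost without replicate 1 of KRAB-D9 with IFN (log2 fold change 0.16) or with both treatments (0.15). Both treatments together against untreated KRAB-D9 cells again gave these 5 and 3 (25% of all genes called, 12.5% in each direction). SAMD9 itself was not called different there, at a mean of 0.797 against 0.557 CPM (0.47 ± 0.26, edgeR adjusted p = 0.222). These comparisons share libraries.

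IFN changed fewer of them. In parental cells 3 of the 10 were called, all higher (TFRC, TFR2 and SLC25A37), where 4.34% of all genes were called (3.03% higher and 1.31% lower). In KRAB-D9 cells 4 were called, all higher (TFRC, SLC40A1, SLC11A2 and SLC25A37; 6.4% of all genes called, 3.98% higher and 2.42% lower), and in doxycycline-treated KRAB-D9 cells TFRC and SLC40A1 rose and FTL fell (4.89% of all genes called, 3.12% higher and 1.77% lower). TFRC rose in all 3. The IFN effect was not called different between KRAB-D9 and parental cells for any of the 10 genes by edgeR (0.303% of all genes called, 0.145% higher and 0.158% lower, and 0 of the 10 at an unadjusted p under 0.05) or by DESeq2. When replicate 2 of KRAB-D9 with IFN was left out, 1 of the 10 (FTH1) was called.

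**Figure D2:**
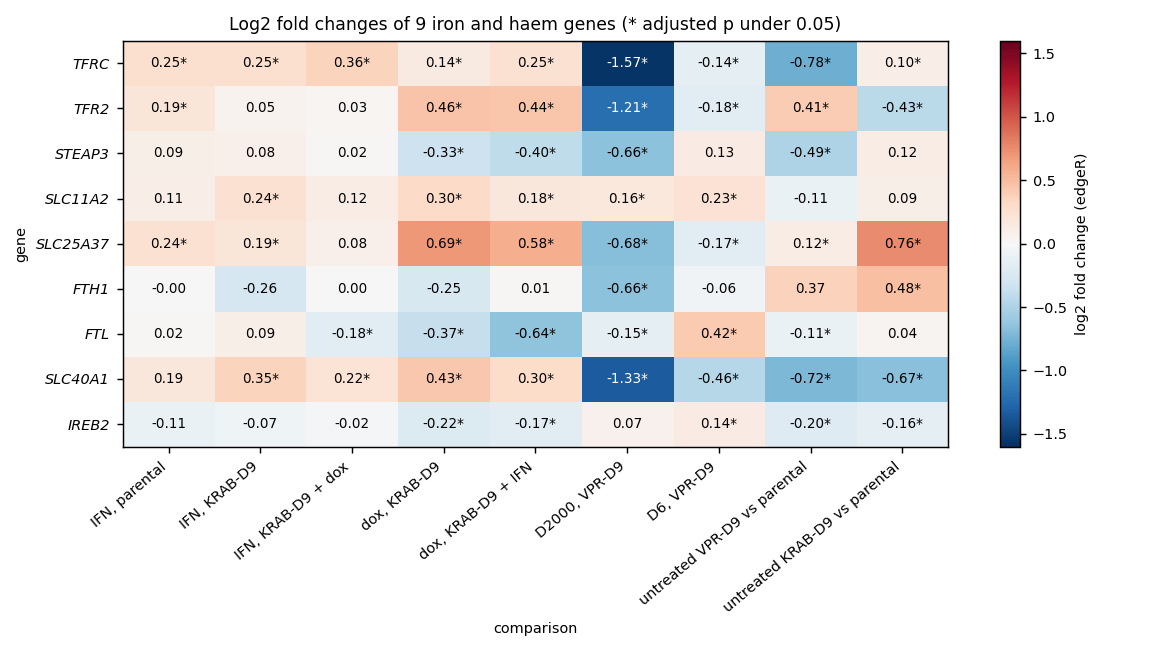
Log2 fold changes of 9 of the genes (rows) in 9 comparisons (columns), from 1 edgeR model over 18 libraries, with red for higher and blue for lower and an asterisk for an adjusted p under 0.05. HMOX1 is left out for its few counts; TFRC lies between 0.14 and 0.36 for IFN and for doxycycline in KRAB-D9 and at -1.57 for D2000.

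Among the uptake genes, TFRC (ENSG00000072274.13, chr3:196027183-196082096, GRCh38) encodes transferrin receptor 1. In VPR-D9 cells it stood at 645 and 664 CPM untreated, 223 and 219 CPM in D2000 and 583 and 607 CPM in D6. The D2000 libraries lay far below the other 4. The fall in D2000 was 2.96-fold (-1.57 ± 0.04, adjusted p = 2.78e-30), and D6 lay above D2000 by 1.43 ± 0.04 (adjusted p = 1.54e-28). The small D6 fall (-0.14 ± 0.03, adjusted p = 0.00886) was not called without replicate 2 of the untreated cells or replicate 1 of D6, and its adjusted p ranged from 0.000442 to 0.185 over the alternatives. Summed CPM of the 9 erythroid markers moved the same way, at 661 to 683 untreated, 430.1 to 432 in D2000 and 599.8 to 601 in D6. Their part in the fall was not tested.

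Interferon raised TFRC in both lines. The parental libraries held 1118 and 1126 CPM untreated and 1321 and 1356 CPM with IFN, and the groups did not overlap (0.25 ± 0.03, adjusted p = 1.09e-06). In KRAB-D9 cells the values were 1201 and 1211 CPM untreated and 1413 and 1462 CPM with IFN (0.25 ± 0.03, adjusted p = 1.11e-06). With doxycycline present, IFN moved TFRC from 1373 and 1290.5 CPM to 1718 and 1699 CPM (0.36 ± 0.03, adjusted p = 2.67e-10). The last pair was the highest of all groups. The erythroid marker sum was also higher with IFN, at 1025 to 1062 CPM against 925 to 933 CPM in parental cells and 1944 to 2112 CPM against 1783 to 1793 CPM in KRAB-D9, and its part in the rise was not tested. Doxycycline alone raised TFRC by 0.14 ± 0.03 (adjusted p = 0.0015), a call that was lost without replicate 1 of the doxycycline group (0.10), with adjusted p from 2.52e-05 to 0.105 over the alternatives.

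The proximal promoter of TFRC is shown because TFRC spanned the widest range of the 9 genes that all lines expressed. It covers the 250 bases before the start in RefSeq (GRCh38.p14, chr3:196082091-196082340, minus strand), and the capitals mark ACGTG, the core of the hypoxia-response element.
TFRC promoter: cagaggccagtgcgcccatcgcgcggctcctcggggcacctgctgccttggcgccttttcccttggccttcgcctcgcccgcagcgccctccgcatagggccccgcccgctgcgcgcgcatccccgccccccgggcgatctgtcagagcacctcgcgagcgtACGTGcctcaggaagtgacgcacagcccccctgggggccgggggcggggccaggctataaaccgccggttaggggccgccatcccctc
The match begins 88 bases before the start, and 18.5% of 35116 promoters of this length hold ACGTG on either strand. The window has no match, on either strand, to CACGTG (E-box, 6.34% of promoters), GATAA (GATA core, 20.4%), TGACNNNGC (antioxidant-response core, 10.9%), or to the interferon-response core (3.02%). ACGTG is contained in CACGTG. Of the 10 genes, 6 had an entry in the promoter table, and FTL was the other with ACGTG.

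TFR2 (ENSG00000106327.13, chr7:100620416-100642779) encodes transferrin receptor 2, which in erythroid cells binds the erythropoietin receptor and tempers its signal. Untreated VPR-D9 cells had its highest level, 176 CPM in each library, and D2000 its lowest, 71.9 and 80.2 CPM. The fall was 2.31-fold (-1.21 ± 0.05, adjusted p = 4.95e-22). D6 lay at 158 and 154 CPM (-0.18 ± 0.05, adjusted p = 0.025), a call lost with library totals as the scaling and when any of the 4 libraries compared was left out (adjusted p from 0.000503 to 0.194 over the alternatives). In KRAB-D9 cells it moved the other way with doxycycline, from 96.5 and 99.5 CPM to 129.9 and 140.1 CPM (0.46 ± 0.05, adjusted p = 3.69e-09), and by 0.44 ± 0.05 with IFN present. IFN raised it in parental cells, from 136 and 128 CPM to 147 and 155 CPM (0.19 ± 0.05, adjusted p = 0.0187), but not at the threshold without replicate 2 of either group (adjusted p from 0.000545 to 0.337 over the alternatives).

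STEAP3 (ENSG00000115107.20, chr2:119223831-119265652) encodes the main endosomal ferrireductase of erythroid cells. It stood at 35.1 and 35.5 CPM in untreated VPR-D9 cells, 24.4 and 20.1 CPM in D2000 and 37.1 and 40.3 CPM in D6. The fall in D2000 was called (-0.66 ± 0.08, adjusted p = 9.52e-10), and D6 was not (0.13 ± 0.07, adjusted p = 0.376). In KRAB-D9 cells doxycycline took it from 52.2 and 55.4 CPM to 43.0 and 42.3 CPM (-0.33 ± 0.07, adjusted p = 0.000469), and from 56.9 and 57.1 CPM to 44.7 and 41.6 CPM with IFN present (-0.40 ± 0.07, adjusted p = 4.67e-05). The antisense gene STEAP3-AS1 had 0.978% as many counts as STEAP3.

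SLC11A2 (ENSG00000110911.17, chr12:50979401-51028566) encodes DMT1, the proton-coupled importer of ferrous iron. Its range was narrow, from 47.4 CPM in a library of untreated VPR-D9 cells to 76.7 CPM in one of KRAB-D9 with both treatments. It was the only one of the 10 that rose in D2000 (0.16 ± 0.06, adjusted p = 0.0131), where the libraries held 55.7 and 53.4 CPM against 47.4 and 49.99 CPM. That call was lost without replicate 1 of either group (adjusted p from 1.42e-07 to 0.195 over the alternatives). The rise in D6 (0.23 ± 0.06, adjusted p = 0.00508) was lost in the same way (0.000257 to 0.191). In KRAB-D9 cells it went from 56.6 and 55.4 CPM to 65.4 and 67.2 CPM with IFN (0.24 ± 0.06, adjusted p = 0.00348), 70.4 and 68.0 CPM with doxycycline (0.30 ± 0.06, adjusted p = 3.98e-05) and 76.7 and 73.8 CPM with both. The 4 groups did not overlap. The IFN call was lost without replicate 2 of the untreated cells and in a fit of only the compared groups (0.00056 to 0.0951).

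Downstream of uptake, SLC25A37 (ENSG00000147454.14, chr8:23528956-23575463) encodes mitoferrin-1, the importer that feeds haem synthesis in erythroid cells. In KRAB-D9 cells it rose in steps that did not overlap: 356 and 349 CPM untreated, 402 and 404 CPM with IFN, 566 and 570.4 CPM with doxycycline and 589 and 614 CPM with both. The doxycycline rise was 1.61-fold (0.69 ± 0.04, adjusted p = 1.86e-17) and, with IFN present, 1.49-fold (0.58 ± 0.04, adjusted p = 3.13e-15). IFN alone gave 0.19 ± 0.04 (adjusted p = 0.000396), a call lost in a fit of only the compared groups (6.65e-07 to 0.0816 over the alternatives). With doxycycline present the IFN step was not called (0.08 ± 0.04, adjusted p = 0.253).

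Parental cells also had more SLC25A37 with IFN, 244 and 249 CPM against 203 and 213 CPM (0.24 ± 0.04, adjusted p = 1.51e-05). VPR-D9 cells went from 229 and 224 CPM to 139.5 and 143 CPM in D2000 (-0.68 ± 0.04, adjusted p = 2e-18) and to 199 and 204 CPM in D6 (-0.17 ± 0.04, adjusted p = 0.00254). The D6 call was lost without replicate 1 of either group (8.77e-05 to 0.0621).

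The 2 ferritin chains did not move together. FTH1 (ENSG00000167996.16, chr11:61959718-61967634) encodes the heavy chain, which oxidises iron for storage, and FTL (ENSG00000087086.15, chr19:48965309-48966879) the light chain, which helps to form the mineral core. FTH1 fell in D2000, from 1139 and 1145 CPM to 701 and 745 CPM (-0.66 ± 0.13, adjusted p = 0.0021), and stood at 1078 and 1114 CPM in D6 (-0.06 ± 0.13, adjusted p = 0.906). FTL fell little in D2000, from 2030.4 and 1981 CPM to 1869 and 1750.5 CPM (-0.15 ± 0.04, adjusted p = 0.000931). With library totals in place of TMM the FTL change was 0.08 and not called, and the call was also lost without replicate 2 of D2000 (5.48e-06 to 0.0894). In D6, FTL rose to 2628 and 2735 CPM, its highest level (0.42 ± 0.04, adjusted p = 6.99e-11).

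In KRAB-D9 cells FTL had the largest called falls with doxycycline among the 10 genes, HMOX1 aside. It stood at 2297 and 2169 CPM untreated, 2391 and 2366 CPM with IFN, 1746 and 1703 CPM with doxycycline and 1488 and 1561 CPM with both. The doxycycline groups lay below the others, by 0.37 ± 0.04 on the log2 scale without IFN (adjusted p = 3.03e-10) and by 0.64 ± 0.04 with it (adjusted p = 1.86e-16). IFN lowered FTL where doxycycline was present (-0.18 ± 0.04, adjusted p = 0.00154; lost without replicate 1 of the group with both, range 0.00017 to 0.0661). Without doxycycline the IFN change was 0.09 ± 0.04 (adjusted p = 0.164), and the difference between the IFN effects with and without doxycycline was itself called (-0.27 ± 0.05, adjusted p = 0.0129). FTL was the only one of the 10 called in that test, in which 0.158% of all genes were (0.0632% higher and 0.0948% lower). The test missed the threshold without replicate 2 of the untreated cells, replicate 1 of the doxycycline group or replicate 1 of the group with both, and in a fit of the KRAB-D9 groups alone (0.000687 to 0.15 over the alternatives).

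FTH1 in KRAB-D9 cells was limited by 1 group. The libraries held 1183 and 1279 CPM untreated, 839 and 1209 CPM with IFN, 1019 and 1051 CPM with doxycycline and 1088 and 982 CPM with both. The low value with IFN is that of the shallowest library. The fall with doxycycline (-0.25 ± 0.13) was not called (adjusted p = 0.231), though the 2 groups did not overlap. When that library was left out, the fall was -0.25 and called (adjusted p = 5.54e-07; range over the alternatives 2.74e-08 to 0.541). With IFN present the doxycycline effect on FTH1 was 0.01 ± 0.13 (adjusted p = 0.97), -0.22 without replicate 1 of KRAB-D9 with IFN (adjusted p = 0.000139) and 0.31 without replicate 2 (adjusted p = 1.23e-06), so its direction rests on which library is kept. In parental cells IFN left FTH1 at 891 and 877 CPM against 896 and 874 CPM, and FTL at 2115 and 2263 CPM against 2121 and 2211 CPM.

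Ferritin genes have many processed pseudogenes. The 18 FTH1 pseudogene rows together held 0.474% as many counts as FTH1, and the 10 FTL rows 0.119%. Adding them to the genes changed no ferritin call.

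**Figure D3:**
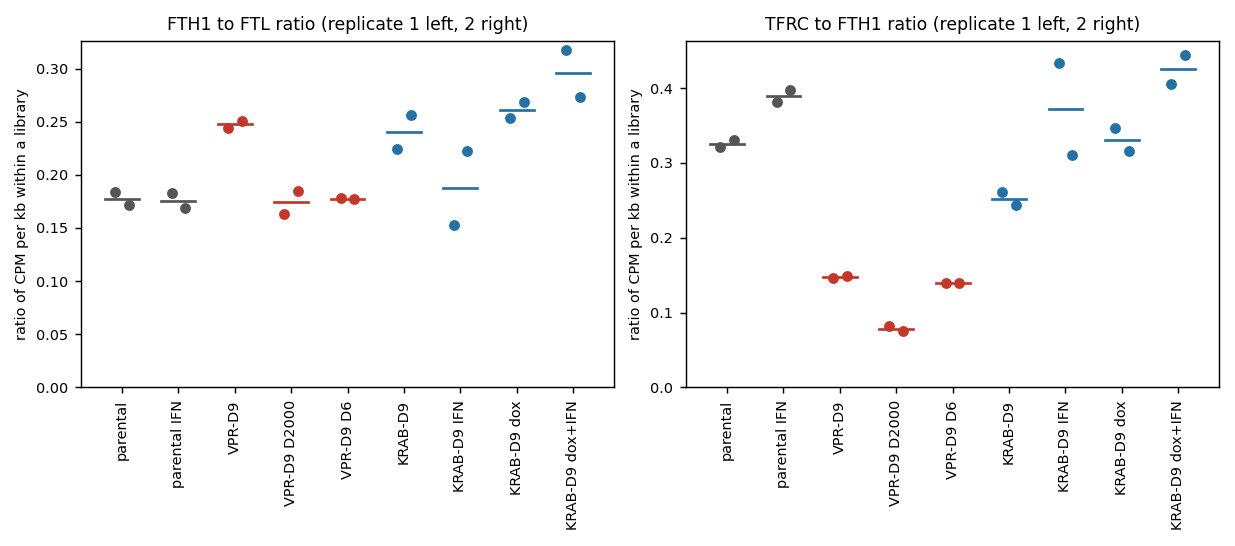
Ratio of FTH1 to FTL (left) and of TFRC to FTH1 (right) within each library, from CPM per kb. Points are libraries and lines are group means. The FTH1 to FTL ratio runs from 0.152 to 0.318, and the TFRC to FTH1 ratio from 0.0755 in D2000 to 0.445 in KRAB-D9 with both treatments.

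Ratios of RNA levels within a library, which no scaling between libraries can move, compare FTH1 with FTL mRNA and TFRC with FTH1 mRNA. Protein levels, iron uptake and iron storage were not measured, and these ratios do not give their balance. The size of a ratio also rests on the gene-model lengths, which are the same for every library. FTH1 to FTL, per kb, was 0.244 and 0.251 in untreated VPR-D9 cells, 0.163 and 0.185 in D2000 and 0.178 and 0.177 in D6. Both doxycycline groups lay below the untreated one. In KRAB-D9 cells it was 0.224 and 0.256 untreated, 0.254 and 0.268 with doxycycline, 0.318 and 0.273 with both and 0.152 and 0.222 with IFN alone. TFRC to FTH1 was 0.146 and 0.149 in untreated VPR-D9 cells, 0.0819 and 0.0755 in D2000 and 0.139 and 0.140 in D6. It was 0.261 and 0.244 in untreated KRAB-D9 cells against 0.347 and 0.316 with doxycycline and 0.406 and 0.445 with both, and these 3 groups did not overlap. With IFN alone it was 0.433 and 0.311, which overlapped both doxycycline groups.

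HMOX1 (ENSG00000100292.18, chr22:35380361-35394214) was found in VPR-D9 cells alone above a trace. The 6 VPR-D9 libraries held 93 to 173 counts and the other 12 held 0 to 9. Untreated VPR-D9 cells stood at 2.43 and 2.49 CPM, D2000 at 1.91 and 1.41 CPM and D6 at 3.34 and 2.03 CPM. Untreated parental cells had 0 counts in both libraries. Against a floor of 3 counts over the parental group, untreated VPR-D9 cells were at least 86.1-fold higher. The edgeR test, which uses no such floor, called the difference (adjusted p = 3.49e-09). HMOX1 passed the filter on low counts only through the VPR-D9 libraries, where it is high, so this call is no separate support. Within VPR-D9, neither D2000 (-0.57 ± 0.47, adjusted p = 0.351) nor D6 (0.13 ± 0.46, adjusted p = 0.949) was called. A fit of only the compared groups called D2000 (adjusted p = 0.0491; range over the alternatives 0.0491 to 0.791). In KRAB-D9 with IFN the libraries held 0 and 9 counts and with both treatments 0 and 0. That difference was called (adjusted p = 0.0264), but the groups overlap at 0, and without replicate 2 of KRAB-D9 with IFN no counts were left (adjusted p from 0.0023 to 1 over the alternatives).

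SLC40A1 (ENSG00000138449.11, chr2:189560590-189583758) encodes ferroportin, the iron exporter. In VPR-D9 cells it fell with TFRC, from 48.8 and 46.7 CPM to 19.6 and 18.4 CPM in D2000, 2.51-fold (-1.33 ± 0.06, adjusted p = 2.14e-20). D6 lay between, at 34.6 and 35.0 CPM (-0.46 ± 0.06, adjusted p = 1.4e-06). Among the 10 genes this was the largest fall in D6. In KRAB-D9 cells it stood at 46.8 and 52.0 CPM untreated, 65.6 and 60.7 CPM with IFN (0.35 ± 0.06, adjusted p = 8.36e-05), 63.3 and 70.0 CPM with doxycycline (0.43 ± 0.06, adjusted p = 4e-07) and 77.3 and 77.6 CPM with both. All 3 treated groups lay above the untreated one. IFN added to doxycycline gave 0.22 ± 0.06 (adjusted p = 0.0209), lost without replicate 1 of the doxycycline group or either replicate with both (0.00481 to 0.418). In parental cells IFN moved it from 78.3 and 78.5 CPM to 89.4 and 89.2 CPM, with no overlap, and just missed the threshold (0.19 ± 0.06, adjusted p = 0.0593). DESeq2 called it (0.0452), as did library totals, a fit of the parental groups alone and the fit without replicate 1 of KRAB-D9 with IFN (0.00744 to 0.269).

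IREB2 (ENSG00000136381.13, chr15:78437431-78501453) encodes IRP2, which is controlled mainly by protein decay. It varied least of the 10, from 141 to 192 CPM over all libraries. In KRAB-D9 cells doxycycline lowered it from 172 and 171 CPM to 154 and 141 CPM (-0.22 ± 0.04, adjusted p = 0.000124), and from 161 and 167 CPM to 144 and 147 CPM with IFN present (-0.17 ± 0.04, adjusted p = 0.00242; lost in a fit of only the compared groups, range 0.000339 to 0.0585). In VPR-D9 cells it was 167 CPM in each untreated library, 176 and 173 CPM in D2000 (0.07 ± 0.04, adjusted p = 0.215) and 180.3 and 186 CPM in D6 (0.14 ± 0.04, adjusted p = 0.0432). The D6 call was lost when any of the 4 libraries compared was left out and without the filter on low counts (0.000542 to 0.364). With library totals in place of TMM the D2000 change was 0.30 and called (9.9e-08 to 0.52 over the alternatives).

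Scaling matters for D2000. TMM, the scaling used throughout, left the median of all genes at 0.06, and library totals put it at 0.29, a shift of 0.23. Of the 7 falls, 6 were still called with library totals and FTL was not (0.08). The 6, not adjusted for the shift, were -1.34 for TFRC, -1.10 for SLC40A1, -0.98 for TFR2, -0.45 for SLC25A37, -0.43 for STEAP3 and -0.43 for FTH1. Among all called genes 47.6% were higher in D2000 with TMM and 68.6% with library totals. In D6 these shares were 48.4% and 69.0%, and for D6 against D2000 53.6% and 31.2%.

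The responses of VPR-D9 to D2000 and of KRAB-D9 to doxycycline ran in opposite directions, with both changes called, for 4 of the 10 genes. TFRC, TFR2, SLC25A37 and SLC40A1 fell in the first and rose in the second. Of all genes, 24.2% were called lower and 21.9% higher in the first, and 12.7% lower and 12% higher in the second. The share of all genes called in opposite directions was not counted, so the 4 of 10 cannot be set against it. IREB2 fell in the second and was not called in the first. The test of the difference between the 2 effects called 7 of the 10, with 31.3% of all genes called (12.2% higher and 19.1% lower). The differences were -1.76 ± 0.09 for SLC40A1, -1.71 ± 0.05 for TFRC, -1.67 ± 0.07 for TFR2 and -1.37 ± 0.05 for SLC25A37. The erythroid marker sum fell in D2000 (above) and was higher in KRAB-D9 with doxycycline (2081 to 2086 CPM) than without (1783 to 1793 CPM). Sums of fibroblast markers, carried by COL1A1 and COL1A2 with PDGFRB under 1 CPM, were 2.90 to 3.45 CPM in untreated VPR-D9, 30.1 to 30.9 CPM in D2000 and 31.0 to 31.4 CPM in D6, and 29.7 to 35.0 CPM in untreated KRAB-D9 against 12.6 to 14.4 CPM with doxycycline. Their part in these results was not tested.

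The lines also differed before treatment. Of the 10 genes, 3 were higher, HMOX1 among them, and 5 lower in untreated VPR-D9 than in parental cells. Of all genes 36.8% were called (18.5% higher and 18.2% lower). TFRC (-0.78 ± 0.03), SLC40A1 (-0.72 ± 0.06) and STEAP3 (-0.49 ± 0.07) were lower and TFR2 (0.41 ± 0.05) was higher. The erythroid marker sums of the untreated lines differed too, at 661 to 683 CPM in VPR-D9, 925 to 933 CPM in parental and 1783 to 1793 CPM in KRAB-D9 cells, and their part was not tested. Untreated KRAB-D9 cells had more SLC25A37 (0.76 ± 0.04) and less SLC40A1 (-0.67 ± 0.06) and TFR2 (-0.43 ± 0.05), with 3 of the 10 genes higher and 3 lower (28.5% of all genes called, 14.2% higher and 14.3% lower). TFR2 thus differed from parental cells in opposite directions in the 2 lines. FTH1 was higher in KRAB-D9 (0.48 ± 0.13, adjusted p = 0.023), a call lost when any of the 4 libraries compared was left out and without the filter (6.97e-16 to 0.132 over the alternatives). In VPR-D9 it just missed the threshold (0.37 ± 0.13, adjusted p = 0.0558), and it was called by DESeq2 and without replicate 1 of KRAB-D9 with IFN (5.75e-21 to 0.202).

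Other genes of iron and haem handling were taken from a list of 50, of which 47 were tested (not STEAP4, FTMT and CP). In D2000, 23 fell and 9 rose, where 24.2% of all genes were lower and 21.9% higher. Their median log2 fold change was -0.23, against 0.06 over all genes. NCOA4, the receptor that carries ferritin to lysosomes for degradation, rose most, from 373 ± 3.5 to 867 ± 17 CPM (1.22 ± 0.04, adjusted p = 3.89e-27). It was also higher in D6 (0.40 ± 0.03, adjusted p = 4.35e-11), at 493 ± 4.5 CPM. SLC39A14, the zinc transporter ZIP14 that also imports iron not bound to transferrin, fell from 47.2 ± 0.31 to 22.3 ± 0.94 CPM in D2000 (-1.08 ± 0.06, adjusted p = 5.56e-19). HEBP1, a haem-binding protein, rose by 1.05 ± 0.15 and ERFE, the erythroid hormone that restrains hepcidin, by 1.03 ± 0.27, the latter from 0.870 to 1.78 CPM. In D6, 2 rose and 2 fell (6.6% of all genes called, and 2 to 10 of the 47 as each library was left out): HEBP1 (0.50 ± 0.15) and NCOA4 rose, and BLVRA, a biliverdin reductase (-0.31 ± 0.07), and SLC48A1, a haem transporter (-0.25 ± 0.06), fell.

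**Figure D4:**
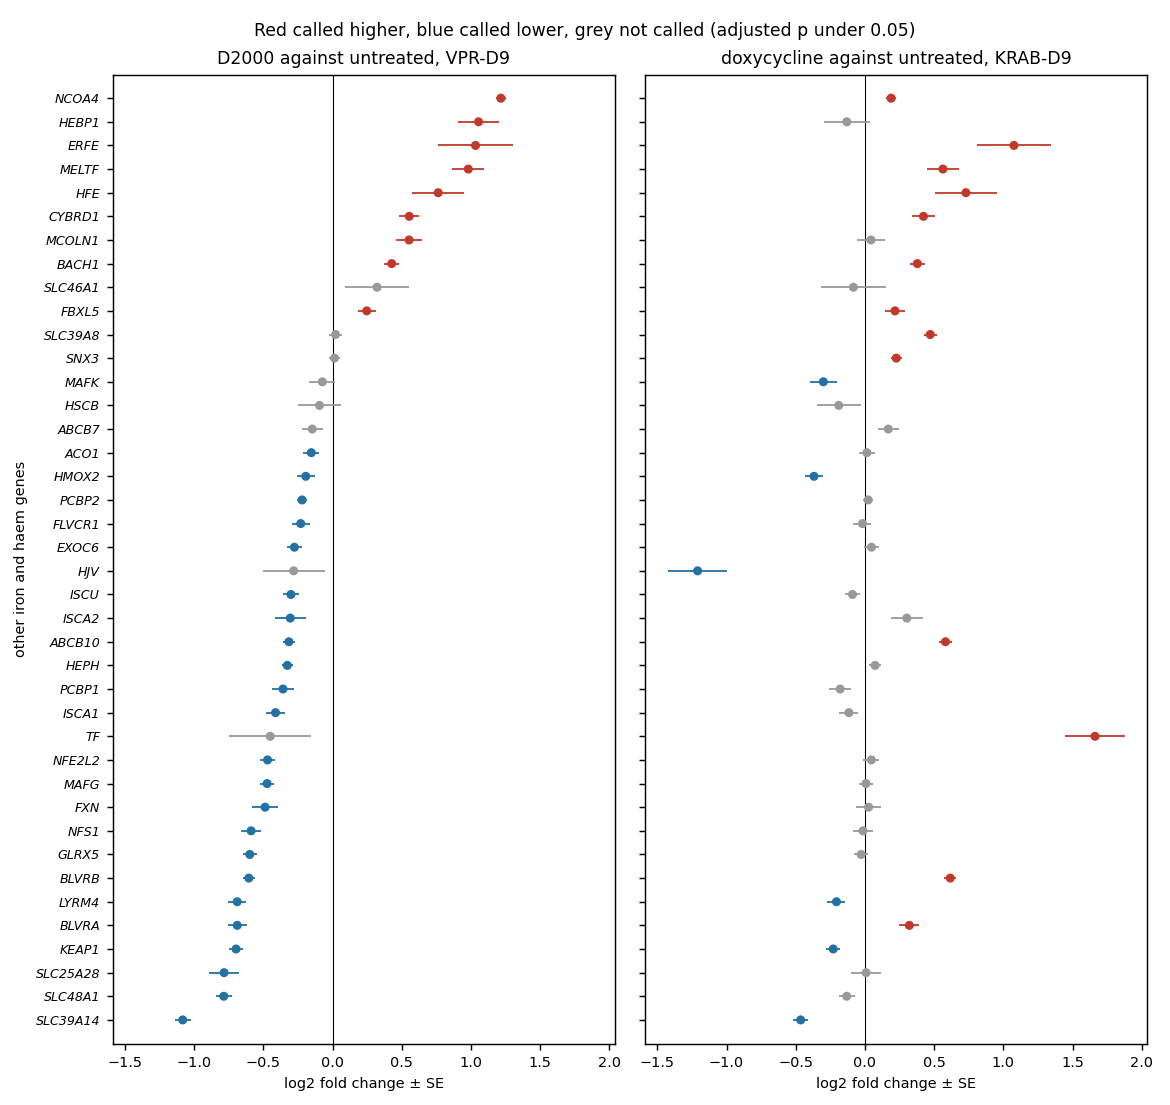
Log2 fold change ± standard error of 40 other iron and haem genes in D2000 against untreated VPR-D9 (left) and in doxycycline against untreated KRAB-D9 (right), in the order of the left panel. Genes under 1 CPM in all 4 groups (7 of the 47 tested) are not drawn. NCOA4 is the highest on the left at 1.22 and SLC39A14 the lowest at -1.08, and TF is the highest on the right at 1.66.

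In KRAB-D9 cells doxycycline raised 13 and lowered 6 of the 47, where 12% of all genes were higher and 12.7% lower. The 4 largest were TF, the gene for transferrin (1.66 ± 0.21, from 3.53 to 11.2 CPM), HJV, a co-receptor in hepcidin control (-1.21 ± 0.21, from 6.58 to 2.85 CPM), ERFE (1.08 ± 0.27, from 1.37 to 2.90 CPM) and HFE, a partner of the transferrin receptors (0.73 ± 0.22, from 1.65 to 2.72 CPM). With IFN present 9 rose and 5 fell (10.4% of all genes higher and 11.9% lower), led by TF (1.55 ± 0.21), HJV (-1.03 ± 0.23), BLVRB, the other biliverdin reductase (0.50 ± 0.04), and ABCB10, a partner of mitoferrin-1 in the mitochondrial membrane (0.49 ± 0.04). ABCB10 and SLC25A37 rose in both of these comparisons.

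With IFN 4.34% of all genes were called in parental cells, 6.4% in KRAB-D9 and 4.89% in KRAB-D9 with doxycycline. In parental cells 3 of the 47 rose (MELTF, melanotransferrin, 0.46 ± 0.12; SLC48A1, 0.35 ± 0.06; ABCB10, 0.17 ± 0.04) and ACO1, which encodes IRP1, fell (-0.24 ± 0.06, adjusted p = 0.0113). In KRAB-D9 cells 7 rose and 2 fell, and ACO1 was again lower (-0.35 ± 0.06, adjusted p = 8.36e-05, from 57.6 to 45.1 CPM). With doxycycline present 3 rose and 2 fell, with ACO1 at -0.27 ± 0.06 (adjusted p = 0.00211), SLC39A14 at 0.29 ± 0.06 and FLVCR1, a haem exporter, at 0.26 ± 0.06. ACO1 fell and SLC48A1 rose in all 3 IFN comparisons.

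Of 10 target genes of NRF2 and BACH1, the factors that also control HMOX1, 5 fell and 2 rose in D2000 (46.1% of all genes called). GCLM, a subunit of the enzyme that starts glutathione synthesis, fell from 127 ± 0.31 to 52.1 ± 1.1 CPM (-1.28 ± 0.05), SRXN1 by 0.96 ± 0.19 and TXNRD1, thioredoxin reductase 1, by 0.85 ± 0.04. In KRAB-D9 cells doxycycline raised SLC7A11, the cystine importer (1.14 ± 0.09), and lowered 4, among them NQO1 (-0.72 ± 0.05), where 24.7% of all genes were called. Of 4 other mRNAs known for an iron-responsive element, ALAS2, the first enzyme of erythroid haem synthesis, fell in D2000 from 116 ± 1.8 to 40.4 ± 2.4 CPM (-1.52 ± 0.05) and rose with doxycycline in KRAB-D9 from 245 ± 9.5 to 398 ± 14 CPM (0.70 ± 0.04). EPAS1, a hypoxia-inducible factor subunit, also fell in D2000 (-0.83 ± 0.08).

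The genes whose pattern was most like that of each member were found by Pearson's r of log2 CPM over the 9 group means, among 10437 genes of at least 5 CPM. The points share the untreated controls and the line differences, and the values are descriptions. For TFRC they were CKS1B (r = 0.998), GINS3 (0.993) and YWHAH (0.992), and for SLC40A1 FAM83D (0.988), HAT1 (0.985) and ATP5IF1 (0.983). For SLC25A37 they were KCNQ1OT1 (0.993), STX2 (0.983) and SLC30A10 (0.982), and for STEAP3 FAM98A (0.992), TMEM208 (0.991) and TXNL4A (0.989). FTL had the lowest best match, CDIN1 (0.930), and that of FTH1 was NGRN (0.955).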

How the data were processed

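Raw counts per gene, whole numbers for 41285 genes in 18 libraries, were used as the authors deposited them. Per the submitters' processing notes, the tools were cutadapt 2.10, STAR 2.7.8a, FastQC 0.11.9 and featureCounts 2.0.2, with build GRCh38.p13. Which annotation release, strand setting and rule for multi-mapped reads the counting used is not given in the sources used here, so genes with overlapping, antisense or near-identical partners are uncertain. Per the labels' protocols, RNA was polyA-selected and the kit is stranded.

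Genes were filtered with filterByExpr (22143 left), scaled by TMM, and fitted in 1 robust edgeR 4.0.16 quasi-likelihood model of 9 group means (R 4.3.3, 9 residual degrees of freedom, common biological coefficient of variation 0.0569). Standard errors are the absolute log2 fold change divided by the square root of F. CPM per kb uses the gene lengths of the deposited table. The fitting steps were tested on data simulated for untreated VPR-D9 and D2000 alone, with the same spread for every gene. The model of 9 groups was not tested in that way.

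The 10 genes and the lists were chosen with earlier results of these data known. Named are the 10 genes and, per comparison, the called genes of largest absolute log2 fold change: up to 4 of the iron list, 3 of the NRF2 and BACH1 list and 4 of the list of other iron-responsive mRNAs. Alternatives were DESeq2 1.42.0 size factors, library totals, no filter, a replicate block, ferritin pseudogenes added, only the compared groups, DESeq2's Wald test and each library left out. Leaving out replicate 1 of KRAB-D9 with IFN in comparisons that do not use it was added after seeing the data. A group left with 1 library is assumed to vary like the others.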

Additional observations from a re-analysis of the deposited data

Results flagged for a closer look

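The IFN effect on FTL in KRAB-D9 cells differed with doxycycline by an interaction test (-0.27 on the log2 scale). Between D2000 in VPR-D9 and doxycycline in KRAB-D9 the difference of the effects was called for 7 of the 10 genes, by the same kind of test. It was -1.76 for SLC40A1, -1.71 for TFRC, -1.67 for TFR2, -1.37 for SLC25A37, -0.33 for STEAP3, 0.22 for FTL and 0.28 for IREB2. The STEAP3 difference (adjusted p = 0.0135) was lost with library totals (-0.14), without replicate 2 of D2000 and without replicate 1 of untreated KRAB-D9 (adjusted p from 0.000541 to 0.361 over the alternatives). STEAP3 and FTL fell under both treatments. With 2 libraries a group, no library could be tested as an outlier.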

How the results depend on the processing

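The 14 counts of the 10 genes called and the 14 of the other iron genes stayed within 1.5 times under DESeq2 size factors, library totals, no filter, DESeq2's Wald test and the replicate block. The block changed no call of the 10 genes (TFRC in D2000 stayed at -1.57) and moved 6 of the 14 counts of the other iron genes by 1 each, as for IFN in KRAB-D9 (8 against 9). Whether same-numbered libraries belong together is not in the labels. The correlation of deviations between them ran from -0.16 to 0.24 over 36 pairs of groups (3 above 0.1). It was highest between the IFN groups of parental and KRAB-D9 cells. Low values cannot exclude a shared culture or batch. In a fit of only the compared groups, which tests fewer genes with fewer residual degrees of freedom, the 10 genes gave 2 calls for IFN in KRAB-D9 and 0 for the interaction, and the other iron genes 7 for IFN in parental cells, 3 for IFN in KRAB-D9, 8 for doxycycline with IFN in KRAB-D9 and 7 for D6. With library totals the sign turned for FTL in D2000 (0.081), SLC11A2 and IREB2 in D6 against D2000 (-0.12 each), SLC11A2 in the difference between D2000 and KRAB-D9 doxycycline (0.051) and FTH1 with IFN in parental cells (0.0037). The cause was not tested. FTH1 with IFN was also turned without the filter in parental cells (0.0021) and with pseudogenes added in doxycycline-treated KRAB-D9 cells (-0.00033); none of these FTH1 values was called. Library totals also moved the share of called genes that were higher to 61.4% from 46.7% for doxycycline with IFN, to 60.6% from 49.9% for both treatments and to 63.2% from 38.9% for the difference between D2000 and KRAB-D9 doxycycline. With 1 library left out, calls among the 10 genes ranged from 2 to 7 for D6, from 1 to 3 for IFN with doxycycline, from 0 to 2 for the interaction and from 0 to 1 for the difference of IFN effects. Those of the other iron genes ranged from 1 to 5 (IFN, parental), 5 to 9 (IFN, KRAB-D9), 2 to 8 (IFN with doxycycline), 2 to 10 (D6), 0 to 1 (interaction) and 0 to 3 (difference of IFN effects). The sign of some changes also turned with 1 library left out. With IFN in parental cells it turned for STEAP3 (-0.0018 to 0.18), FTH1 (-0.018 to 0.017) and FTL (-0.032 to 0.064). With IFN in KRAB-D9 it turned for TFR2 (-0.0055 to 0.10). With IFN in doxycycline-treated KRAB-D9 it turned for TFR2 (-0.022 to 0.087), STEAP3 (-0.038 to 0.067), FTH1 (-0.076 to 0.072) and IREB2 (-0.082 to 0.042). It also turned for HMOX1 in D6 (-0.28 to 0.44), FTL between untreated KRAB-D9 and parental cells (-0.00087 to 0.082), and FTH1 with doxycycline and IFN (-0.22 to 0.31). HMOX1 with doxycycline and IFN ran from -6.13 to 0, the latter with no counts left, and did not turn. Of these, only the last 2 were called in any of those fits.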
